A study of Mus musculus with 27 samples.

Results

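Bdnf, Ntf3, Ntrk2, Ntrk3, Ngfr and Sort1 encode neurotrophin ligands and their receptors, and they were read by symbol from a gene table of poly(A) RNA in primary mouse cortical cells. All 6 symbols were present, each once, among 59489 entries, of which 23508 carried a symbol. The study measured 27 libraries in 9 groups of 3, and every group, the unstimulated ones included, had received an inhibitor of RNA polymerase II. The cells were wild type, were isolated at embryonic day 16.5 and had been cultured for 14 days. In one experiment DRB (50 µM, 2 h), which blocks the kinase that releases paused polymerase, was present in all 9 libraries: 3 unstimulated, 3 with bicuculline (20 µM, 1 h), an antagonist of GABA-A receptors that raises network activity, and 3 with BDNF protein (50 ng/mL, 1 h). In the other, triptolide (1 µM, 3 h), which blocks initiation, was present in all 18 libraries: whole cells, nuclei and cytosol, each with 3 unstimulated libraries and 3 with bicuculline (20 µM, 1 h). No group without an inhibitor was analysed here, so the values describe RNA that was present or still made while transcription was inhibited. The titles of the DRB libraries name no fraction. Nothing in the labels says that the numbered replicates came from separate cultures or animals, so p-values measure the spread between these samples, which may be technical.

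Neurotrophins are secreted as proforms and, once cleaved, bind receptor tyrosine kinases of the Trk family: BDNF binds TrkB, and neurotrophin-3 binds TrkC. All neurotrophins also bind the p75 receptor, which has no kinase domain, and the proforms bind p75 together with sortilin. In cortex, BDNF is known for activity-dependent transcription in neurons and for its part in synapse growth and plasticity, and TrkB is also made by astrocytes in a truncated form.

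Expression was given as FPKM, fragment counts scaled to transcript length and library size, so levels can be compared between genes. Each fraction was scaled to its own library. A nucleus minus cytosol difference therefore compares shares of each fraction's RNA and not amounts per cell. The table gives no depth, and the spacing of low FPKM values did not return whole reads (53.5% to 70.2% of low values per library lay within 0.05 of a step). Pan-neuronal markers summed to 1929 to 2088 FPKM in the DRB libraries and to 1223 to 1832 in the triptolide libraries, and 8 astrocyte markers to 508 to 724 and 595 to 853. The 7 excitatory markers summed to 528 to 900 FPKM, the 7 interneuron markers to 194 to 589, the 8 oligodendrocyte-lineage markers to 172 to 231 under DRB and 64.1 to 110 under triptolide, and the 5 progenitor markers to 11.6 to 49.0. Microglial markers summed to at most 6.34 FPKM, vascular and mesenchymal markers to at most 8.78 and Schwann or neural crest markers to at most 2.97, with Foxd3 at 0 in every library. In bulk RNA of this mixture, fewer cells of a type and less RNA per cell cannot be told apart. Along the first principal component, which held 70.1% of the variance of the triptolide libraries and separated the fractions, the bicuculline nuclei of replicates 1 and 3 scored 30.8 and 27.6, against 48.3 for replicate 2 and 43.1 to 47.5 for the unstimulated nuclei. The bicuculline cytosol libraries scored -40.9 to -34.1 against -45.5 to -43.8 for unstimulated cytosol. In the DRB libraries the first component (51.5%) separated replicate 2, at 22.5 to 26.7, from the others, at -20.2 to -8.44. Meg3, a nuclear non-coding RNA, was higher in nuclei than in cytosol by 3.33 ± 0.25 (SE) on the log2 scale without stimulation (limma, adjusted p = 2.82e-08).

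The 6 genes covered a wide range of levels, and the rank of their averages was Ntrk2, Sort1, Ntrk3, Bdnf, Ngfr, Ntf3. Over the 27 libraries Ntrk2 ranged from 165 to 290 FPKM, Sort1 from 63.0 to 108 and Ntrk3 from 17.3 to 36.4. Bdnf ranged from 1.74 to 6.22 FPKM, Ngfr from 0.609 to 2.17 and Ntf3 from 0.240 to 0.851. The ranges of Ntrk2, Sort1, Ntrk3 and Bdnf did not overlap one another, whereas those of Bdnf and Ngfr, and of Ngfr and Ntf3, did. The receptors for BDNF and neurotrophin-3 were thus listed at higher levels than the ligands, and p75 at a level near that of the ligands.

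**Figure D1:**
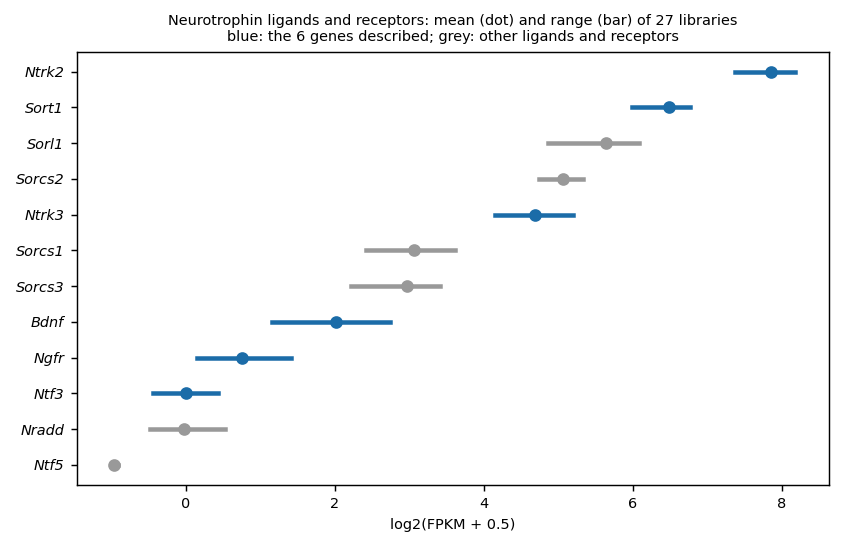
Level of 12 neurotrophin ligand and receptor genes, as log2(FPKM + 0.5) on the horizontal axis; dots are means and bars the range over 27 libraries, blue for the 6 genes described and grey for other ligands and receptors. Ntrk2 and Sort1 stand highest, and Ntf5 lies at the bottom of the scale.

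Other members of the family were placed around them. Ntf5, the gene of neurotrophin-4, did not exceed 0.0343 FPKM in the 27 libraries and was listed at 0 in every bicuculline cytosol library. The sortilin relatives were higher: Sorl1 reached 28.7 to 67.4 FPKM, Sorcs2 26.2 to 39.9, Sorcs1 4.84 to 11.7 and Sorcs3 4.18 to 10.1. Nradd, a p75 relative, ranged from 0.219 to 0.939 FPKM.

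Bdnf lies on chromosome 2 of the mouse build mm10, from 109674700 to 109727043 on the plus strand, and the GENCODE M21 annotation gives it 11 protein-coding transcripts of 249 to 289 codons. Its transcripts begin at several start sites, each with its own 5′ exon, and share the coding exon, so the FPKM of the gene sums over all of them and cannot tell which start site was used. Gm45346, an antisense gene, overlaps it on the opposite strand; the library kit marks strand, but the strand setting of the counting is not given in the sources used here. The RefSeq promoter table (GRCm38.p6) held 7 Bdnf windows of 300 bases (250 before and 50 after the start). The first, the third and the last are shown by their 150 bases before the start, because they mark where different Bdnf transcripts begin and because the third carries the one CRE core found. This core, TGACG, which reads CGTCA on the other strand, is a short form of the cAMP response element through which CREB acts on activity-regulated genes; it is in capitals and lies 35 bases before the start.
chr2:109674550-109674699: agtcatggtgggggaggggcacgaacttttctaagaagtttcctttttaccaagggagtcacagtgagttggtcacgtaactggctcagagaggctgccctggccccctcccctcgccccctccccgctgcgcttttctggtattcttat
chr2:109692286-109692435: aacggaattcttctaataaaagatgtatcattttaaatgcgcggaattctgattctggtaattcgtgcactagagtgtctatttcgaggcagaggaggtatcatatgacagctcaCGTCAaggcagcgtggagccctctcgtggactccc
chr2:109722771-109722920: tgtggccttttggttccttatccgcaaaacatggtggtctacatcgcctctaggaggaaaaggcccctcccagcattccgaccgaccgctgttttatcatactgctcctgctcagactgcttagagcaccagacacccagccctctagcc
Searched on both strands, TGACG was found in 1 of the 7 Bdnf windows and in 1 of the 11 windows of the 6 genes (Bdnf, Ntf3, Ntrk2 and Ngfr had entries), against 20.8% of 32851 windows of this length. The palindrome TGACGTCA, which contains TGACG, was found in 0 of the 11 windows and in 1.79% of all windows. A match describes letters in a window and does not show that the element was used.

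Bdnf had its lowest group means under DRB, and bicuculline was accompanied there by higher Bdnf in each replicate, a difference that did not pass the test across all genes. The unstimulated DRB libraries gave 1.74, 1.79 and 1.85 FPKM in replicates 1, 2 and 3, and the bicuculline libraries gave 2.43, 2.60 and 2.65. The groups did not overlap, as was so for 3.99% of 13321 genes in the higher direction. On the log2(FPKM + 0.5) scale, on which every difference here is given and which understates changes of low genes, Bdnf differed by 0.42 ± 0.16 (SE, n = 3 per group; 95% interval 0.04 to 0.79), or 0.39, 0.43 and 0.42 within replicates 1, 2 and 3. The unadjusted limma p was 0.0332 and the Benjamini-Hochberg adjusted p was 1.00; with the replicate number as a block the adjusted p was 0.494. Of the 4 members tested under DRB none passed, where 0.308% of all genes did. Among them only Bdnf had an unadjusted limma p under 0.05, against 266 of all 13321 genes. For BDNF, and for BDNF against bicuculline, 0 of the 4 had one, against 462 and 347 of all genes.

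Genes known to respond to activity moved far more in the same libraries. Npas4, an activity-induced transcription factor that acts on Bdnf, averaged 5.87 ± 2.81 FPKM (SD, n = 3) without stimulation and 162 ± 35.2 with bicuculline, a log2 difference of 4.74 ± 0.30 (limma adjusted p = 1.50e-04). Arc, a synaptic immediate-early gene, rose by 4.40 ± 0.12 and Fos, a subunit of AP-1, by 3.64 ± 0.24 (limma adjusted p = 1.09e-06 and 1.77e-04). The interval for Bdnf lay below all of these values.

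BDNF protein was accompanied by a Bdnf difference that rested on 1 library. The 3 BDNF-treated libraries gave 1.86, 3.28 and 2.01 FPKM, so replicate 2 stood above the others, and the lowest exceeded the highest unstimulated library by less than 0.01 FPKM. The log2 difference from unstimulated cells was 0.30 ± 0.16 (95% interval -0.08 to 0.67; limma adjusted p = 1.00), with within-replicate values of 0.08, 0.72 and 0.09. Non-overlap in this direction was found for 6.85% of genes, and 0.638% of genes passed the test. Without replicate 2 in all 3 DRB groups the difference was 0.08. Between BDNF and bicuculline Bdnf differed by -0.12 ± 0.16 (limma adjusted p = 1.00), a comparison in which 0.128% of genes passed. The within-replicate values were -0.32, 0.28 and -0.33, and the difference was -0.33 without BDNF replicate 2, 0.01 without BDNF replicate 1 and -0.04 without BDNF replicate 3. Npas4 rose after BDNF by 3.63 ± 0.30 (limma adjusted p = 5.52e-04).

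Under triptolide the Bdnf level depended on the fraction. Whole cells gave 3.82, 3.36 and 4.73 FPKM unstimulated and 4.97, 3.26 and 4.39 with bicuculline. Nuclei gave 2.99, 2.75 and 3.64 FPKM unstimulated and 4.60, 3.02 and 4.34 with bicuculline. Cytosol gave 5.03, 4.27 and 6.22 FPKM unstimulated and 5.21, 3.42 and 5.24 with bicuculline. Replicate 2 was the lowest of its group in all 6 groups, and the stimulated and unstimulated libraries overlapped in each fraction. In the order of group means every triptolide group stood above every DRB group. The libraries did not separate in this way: they ranged from 1.74 to 3.28 FPKM over the 9 DRB libraries and from 2.75 to 6.22 over the 18 triptolide libraries, and the BDNF-treated DRB group (1.86 to 3.28) overlapped the unstimulated nuclei (2.75 to 3.64), while the bicuculline DRB group (2.43 to 2.65) did not. Between the triptolide groups each neighbour in the order overlapped the next. Inhibitor, duration, dose and whatever else differed between the experiments cannot be told apart in that step. The oligodendrocyte-lineage markers separated between the experiments as well, summing to 172 to 231 FPKM under DRB and 64.1 to 110 under triptolide with no overlap. So did the pan-neuronal markers (1929 to 2088 and 1223 to 1832) and the vascular and mesenchymal markers (2.03 to 3.72 and 4.55 to 8.78). Of these sums only the vascular and mesenchymal one was higher under triptolide, as the Bdnf group means were. The part of these markers in the result was not tested.

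Without stimulation Bdnf was lower in nuclei than in cytosol, with a log2 difference of -0.64 ± 0.19 (limma adjusted p = 0.00752; lower in 3 of 3 replicates, with no overlap, as for 29.2% of genes in that direction). In that comparison 67.0% of 14205 genes passed, 39.0% higher and 28.0% lower in nuclei, so a call alone does not set a gene apart. With bicuculline the nucleus minus cytosol difference was -0.19 ± 0.19 (limma adjusted p = 0.407). It was -0.16, -0.15 and -0.25 within replicates 1, 2 and 3, and did not pass with the replicate block either (limma adjusted p = 0.0798). The bicuculline change was 0.07 ± 0.19 in whole cells, 0.30 ± 0.19 in nuclei and -0.16 ± 0.19 in cytosol (limma adjusted p = 0.955, 0.463 and 0.750). Within replicates 1, 2 and 3 the nuclear difference was 0.55, 0.12 and 0.23. The bicuculline nucleus of replicate 2 had the highest fraction score, and the part of that score in the result was not tested. The nuclear change passed only with the replicate number as a block (limma adjusted p = 0.0460, in a fit in which 7.72% of genes were called higher), and it did not pass in that fit when any 1 replicate number was left out (limma adjusted p = 0.332, 0.0569 and 0.136 without replicates 1, 2 and 3).

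**Figure D2:**
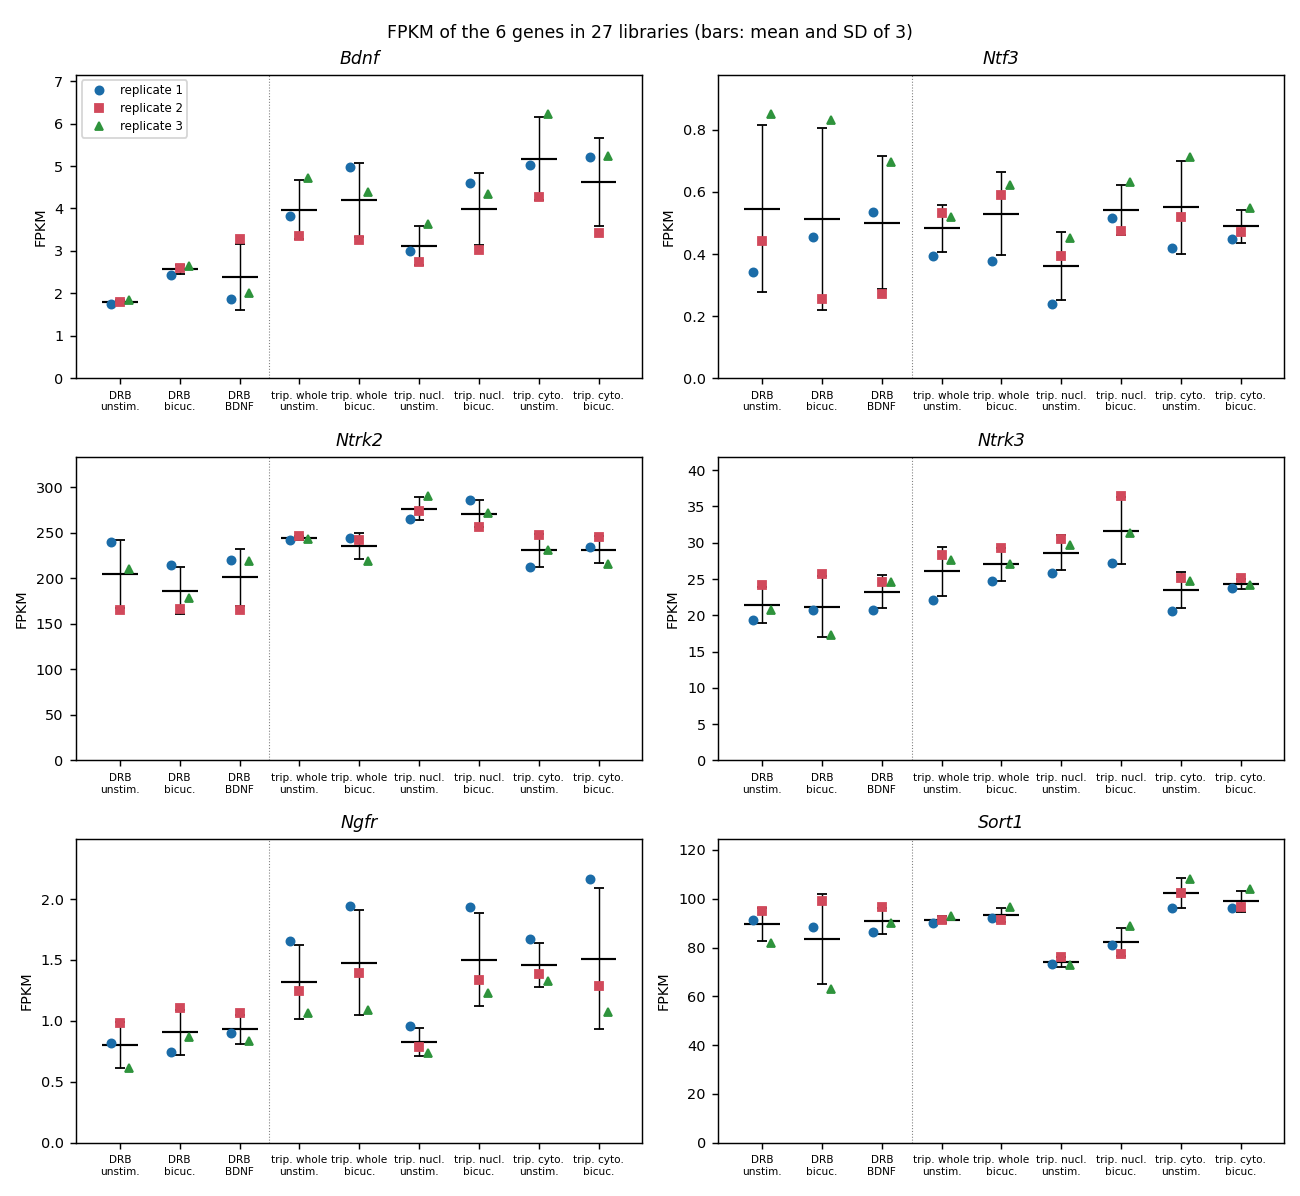
FPKM of each gene (vertical axis, linear from 0) in the 27 libraries, with a group on each horizontal position; symbols are replicates 1, 2 and 3, lines and bars the mean and SD of 3, and the dotted line divides DRB from triptolide. Group means of Bdnf are lower under DRB, where 1 BDNF library overlaps the triptolide range, and Ntrk2 in DRB replicate 2 lies at 165 to 166 FPKM in all 3 groups.

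Ntf3, the gene of neurotrophin-3, lies at chromosome 6, 126101413 to 126166744, on the minus strand, and has 3 coding transcripts. It stayed below 1 FPKM in every library and so below the level filter (at least 1 FPKM in at least 3 libraries of a fit); its differences come from a fit without the filter and are given without a call. Unstimulated nuclei gave 0.240, 0.393 and 0.451 FPKM and bicuculline nuclei 0.517, 0.475 and 0.633. These groups did not overlap, as for 9.48% of the genes that passed the filter, and the log2 difference was 0.28 ± 0.12 (95% interval 0.01 to 0.54). In the order of means the unstimulated nuclei were lowest, at 0.362 ± 0.109 FPKM (SD, n = 3), and each group overlapped its neighbour.

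Under DRB the Ntf3 level followed the replicate number. Replicate 3 gave 0.851, 0.833 and 0.698 FPKM in the unstimulated, bicuculline and BDNF groups. Replicates 1 and 2 lay between 0.255 and 0.534 FPKM in all of them. The bicuculline and BDNF differences were -0.05 ± 0.27 and -0.06 ± 0.27, smaller than that spread.

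Ntrk2 encodes TrkB, the receptor of BDNF, and had the highest level of the family. It spans chromosome 13, 58806568 to 59133970, on the plus strand, with 7 coding transcripts of 466 to 821 codons, of which 5 have under 600 codons, and 4 annotated genes overlap it. The short coding transcripts include receptors without a kinase domain, made by astrocytes among other cells, and the gene's FPKM sums over the long and the short forms.

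Neither stimulus was accompanied by a called change of Ntrk2. Unstimulated DRB libraries gave 240, 165 and 210 FPKM, bicuculline libraries 215, 166 and 179, and BDNF libraries 220, 165 and 219. Replicate 2 was lowest in each group and nearly equal across the 3 treatments. The log2 difference was -0.13 ± 0.17 for bicuculline (95% interval -0.50 to 0.25) and -0.02 ± 0.17 for BDNF (-0.40 to 0.35). The summed astrocyte markers in the DRB libraries ranged from 508 to 724 FPKM; whether they account for the replicate difference was not tested. Under triptolide the bicuculline difference was -0.05 ± 0.07 in whole cells, -0.03 ± 0.07 in nuclei and 0.01 ± 0.07 in cytosol, and their 95% intervals together spanned -0.19 to 0.15.

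Ntrk2 had a higher FPKM in nuclei than in cytosol. Unstimulated nuclei gave 266, 274 and 290 FPKM and unstimulated cytosol 213, 248 and 231. Bicuculline nuclei gave 286, 256 and 272 FPKM and bicuculline cytosol 234, 245 and 215. Every nuclear library exceeded the cytosol libraries of its treatment, as for 39.9% of genes without stimulation and 32.3% with bicuculline. The nucleus minus cytosol difference was 0.26 ± 0.07 without stimulation (limma adjusted p = 0.00237) and 0.23 ± 0.07 with bicuculline (limma adjusted p = 0.00695, in a comparison in which 63.2% of genes passed). Within replicates the unstimulated difference was 0.32, 0.14 and 0.33, so replicate 2 showed the smallest. With median-ratio scaling the nucleus minus cytosol differences were 0.18 without stimulation and 0.24 with bicuculline (limma adjusted p = 0.0220 and 0.00361).

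Ntrk3, which encodes TrkC, the receptor of neurotrophin-3, lies at chromosome 7, 78192114 to 78577980, on the minus strand; GENCODE gives it 6 coding transcripts of 82 to 864 codons, and 4 annotated genes overlap it. Its levels varied little between treatments. DRB libraries gave 19.3, 24.2 and 20.7 FPKM unstimulated, 20.7, 25.7 and 17.3 with bicuculline, and 20.7, 24.6 and 24.6 with BDNF. The groups overlapped, and the log2 differences were -0.03 ± 0.14 for bicuculline (95% interval -0.36 to 0.30) and 0.12 ± 0.14 for BDNF (-0.21 to 0.45). Under triptolide the bicuculline difference was 0.06 ± 0.11 in whole cells, 0.14 ± 0.11 in nuclei and 0.06 ± 0.11 in cytosol, none of which passed.

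Ntrk3, like Ntrk2, was higher in nuclei than in cytosol. Unstimulated nuclei gave 25.9, 30.5 and 29.6 FPKM against 20.6, 25.1 and 24.7 in cytosol. Bicuculline nuclei gave 27.2, 36.4 and 31.4 FPKM against 23.8, 25.1 and 24.1 in cytosol. All nuclear libraries exceeded the cytosol libraries of the same treatment, as for 39.9% of genes without stimulation and 32.3% with bicuculline. The differences were 0.28 ± 0.11 (limma adjusted p = 0.0348, where 67.0% of genes passed) and 0.36 ± 0.11 (limma adjusted p = 0.0102, where 63.2% passed). Without the replicate block the unstimulated call was lost with median-ratio scaling (0.20, adjusted p = 0.129) and without the filter (adjusted p = 0.0656). It was also lost when unstimulated nuclear replicate 2 or 3 or unstimulated cytosol replicate 1 was left out (0.114, 0.0942 and 0.168). The bicuculline call was lost without bicuculline nuclear replicate 2 (0.0667). With the replicate block both calls held (limma adjusted p = 2.47e-04 and 2.62e-05), in fits that called 10784 and 10507 of all 14205 genes. With the block and median-ratio scaling they held as well (limma adjusted p = 0.00680 and 3.95e-05).

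Ngfr, which encodes p75, lies at chromosome 11, 95568818 to 95587699, on the minus strand, with 1 coding transcript of 427 codons and no overlapping gene. Its nuclear level was higher with bicuculline, and in unstimulated cells it was lower in nuclei than in cytosol. Unstimulated nuclei gave 0.955, 0.784 and 0.736 FPKM in replicates 1, 2 and 3. Bicuculline nuclei gave 1.94, 1.34 and 1.23 FPKM. Every bicuculline nucleus was above every unstimulated one, a separation that 9.48% of genes showed in this direction.

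The nuclear difference of Ngfr was 0.58 ± 0.20 (95% interval 0.17 to 1.00), with 0.74, 0.52 and 0.49 in replicates 1, 2 and 3. It did not pass without the replicate block (limma adjusted p = 0.135), where 1.81% of genes passed, and it passed with the block (SE 0.09, limma adjusted p = 0.00160). In the blocked fit it also passed without replicate 2 (adjusted p = 0.0201) or 3 (0.0155) and did not pass without replicate 1 (0.0682). Beside this stand the fraction scores given above. The 0.52 of replicate 2 was measured between nuclei that scored 43.1 and 48.3 on the fraction component. The 0.74 and 0.49 of replicates 1 and 3 were measured between nuclei whose scores dropped with bicuculline. The part of the fraction score in the Ngfr difference was not tested. The 4 Schwann and neural crest markers summed to 1.05 to 2.59 FPKM in unstimulated and 0.931 to 2.64 in bicuculline nuclei, and the 5 pan-neuronal markers to 1223 to 1311 and 1290 to 1465; their part in the result was not tested.

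In cytosol Ngfr gave 1.67, 1.38 and 1.32 FPKM unstimulated and 2.17, 1.29 and 1.07 with bicuculline. Whole cells gave 1.66, 1.24 and 1.06 FPKM unstimulated and 1.94, 1.39 and 1.09 with bicuculline. Stimulated and unstimulated libraries overlapped in both, and replicate 1 was the highest in all 6 triptolide groups. The differences were 0.00 ± 0.20 in cytosol (limma adjusted p = 0.995; 3.27% of genes passed) and 0.11 ± 0.20 in whole cells (adjusted p = 0.919; 0.0352% passed). Nuclei were lower than cytosol by a difference of -0.56 ± 0.20 without stimulation (limma adjusted p = 0.0184), where 28.0% of genes were called lower. Without the replicate block this call was lost when unstimulated nuclear replicate 3 (0.0577) or unstimulated cytosol replicate 1 (0.0691) was left out. Within replicates 1, 2 and 3 the difference was -0.58, -0.55 and -0.56. With the block it passed (limma adjusted p = 4.58e-05), in a fit that called 4705 of 14205 genes lower. With bicuculline the nucleus minus cytosol difference was 0.02 ± 0.20 (limma adjusted p = 0.953).

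Under DRB Ngfr passed 1 FPKM in only 2 libraries, so it was below the filter there. The libraries gave 0.817, 0.983 and 0.609 FPKM unstimulated, 0.747, 1.11 and 0.864 with bicuculline, and 0.898, 1.06 and 0.832 with BDNF. The groups overlapped, and the differences without a filter were 0.11 ± 0.14 and 0.14 ± 0.14.

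Sort1 encodes sortilin, the co-receptor of p75 for proneurotrophins and a sorting receptor for BDNF, and lies at chromosome 3, 108284064 to 108361517, on the plus strand, with 2 coding transcripts. It was lower in nuclei than in cytosol under both treatments. Unstimulated nuclei gave 73.0, 76.2 and 72.7 FPKM and unstimulated cytosol 96.3, 103 and 108. Bicuculline nuclei gave 81.2, 77.4 and 88.7 FPKM and bicuculline cytosol 96.0, 96.8 and 104. No nuclear value reached the cytosol range of its treatment, as for 29.2% and 33.1% of genes. The differences were -0.46 ± 0.06 (limma adjusted p = 2.51e-06) and -0.26 ± 0.06 (limma adjusted p = 8.81e-04).

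Bicuculline nuclei of Sort1 all exceeded the unstimulated nuclei, as for 9.48% of genes, by 0.15 ± 0.06 in log2 (limma adjusted p = 0.180), with 0.15, 0.02 and 0.28 in replicates 1, 2 and 3. With the replicate block the difference passed (limma adjusted p = 0.0390; 7.72% of genes were called higher), and in that fit it did not pass without replicate 1 (0.257) or 3 (0.298). The smallest within-replicate value was that of replicate 2, whose bicuculline nucleus had the highest score on the fraction component. For Ntrk3 the largest was that of replicate 2 (0.07, 0.25 and 0.08 in replicates 1, 2 and 3). The part of the fraction score in these values was not tested. In whole cells and cytosol the differences were 0.03 ± 0.06 and -0.05 ± 0.06. Under DRB the libraries gave 91.2, 95.2 and 82.0 FPKM unstimulated, 88.5, 99.0 and 63.0 with bicuculline and 86.2, 96.5 and 89.9 with BDNF, and neither stimulus gave a call (-0.12 ± 0.15 and 0.02 ± 0.15).

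**Figure D3:**
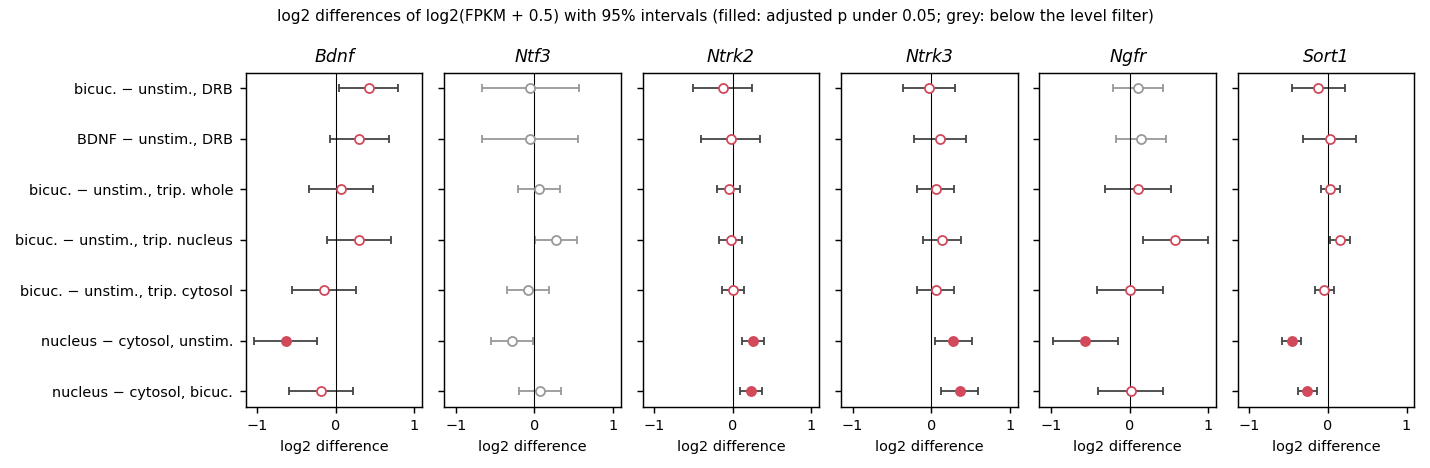
Differences in log2(FPKM + 0.5) for each gene (columns of points; horizontal axis) in 7 comparisons (vertical axis), with 95% intervals; filled points have a limma adjusted p under 0.05 and grey points belong to genes below the level filter. The filled points are the nucleus minus cytosol differences, 5 without stimulation and 3 with bicuculline.

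Across the members, 5 of 5 tested genes differed between nuclei and cytosol without stimulation, 3 lower (Bdnf, Ngfr, Sort1) and 2 higher (Ntrk2, Ntrk3), against 67.0% of all genes. With bicuculline 3 of 5 differed, 1 lower (Sort1) and 2 higher, against 63.2% of all genes (31.9% lower and 31.3% higher). The median difference over all genes was 0.06 and -0.04. The directions of the called differences were the same with median-ratio scaling.

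The bicuculline response itself was compared between nuclei and cytosol in 1 model. For Ngfr it was larger in nuclei by 0.58 ± 0.28 (limma adjusted p = 0.315), for Bdnf by 0.45 ± 0.27 (0.424) and for Sort1 by 0.20 ± 0.08 (0.234). None passed, where 0.556% of genes did. An unadjusted limma p under 0.05 was found for 1 member (Sort1, 0.0247) and for 2326 of all 14205 genes. With the replicate block Ngfr (adjusted p = 0.0174) and Bdnf (0.0421) passed and Sort1 did not (0.0592), in a fit that called 2.84% of genes in this direction. When replicate 1, 2 or 3 was left out of that fit none of them passed (adjusted p between 0.0754 and 0.326). All 3 replicates moved the same way for each of these genes. The share of all genes for which this was so was not computed, so the agreement does not set them apart. The values of Ntrk2 and Ntrk3 were -0.03 ± 0.09 and 0.08 ± 0.16. Scaling matters for this contrast: the median of all genes was -0.11 as deposited and -0.03 with median-ratio scaling, so that a member's difference relative to all genes is larger than its own value by about that shift.

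**Figure D4:**
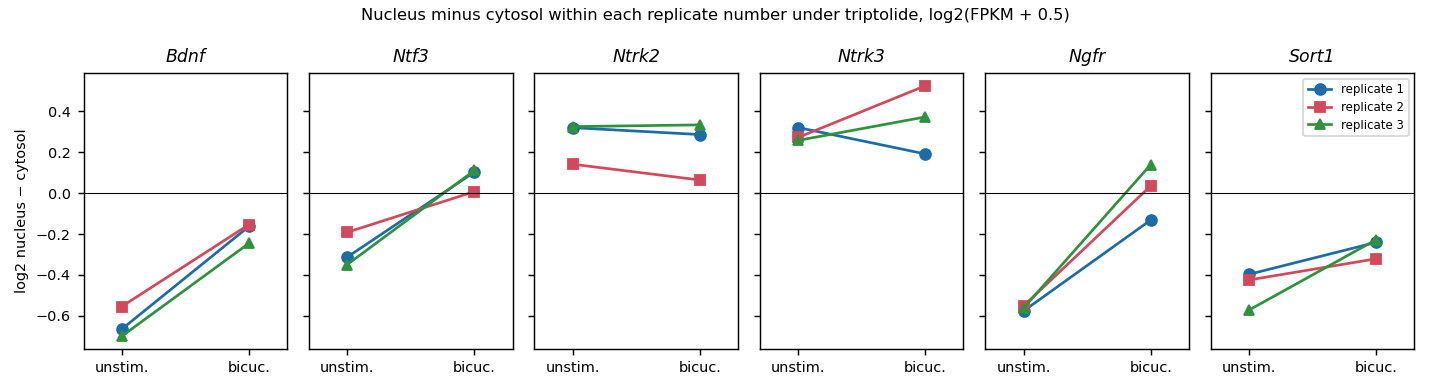
Nucleus minus cytosol difference in log2(FPKM + 0.5) (vertical axis) within each replicate number under triptolide, without stimulation and with bicuculline (horizontal axis). For Bdnf, Ntf3, Ngfr and Sort1 all 3 lines rise from unstimulated to bicuculline, and for Ntrk2 and Ntrk3 the values lie above 0 throughout.

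The response to bicuculline was also compared between DRB and triptolide whole cells, where 0.138% of 13814 genes passed and none of the 5 members tested did. An unadjusted limma p under 0.05 was found for 0 of the 5 and for 310 of all genes. For Bdnf the response under DRB exceeded that under triptolide by 0.35 ± 0.20 (95% interval -0.09 to 0.78; limma adjusted p = 1.00). Npas4, Arc and Fos differed by 4.12 ± 0.39, 3.72 ± 0.31 and 2.89 ± 0.35 (limma adjusted p = 8.58e-04, 5.20e-04 and 0.00547). Inhibitor, its duration and whatever else differed between the experiments cannot be told apart in this comparison.

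Genes with the most similar pattern over the 9 group means were found for the 5 members above 1 FPKM in at least 3 libraries, among 11505 candidates, by the root mean square difference of centred log2 values. Closest to Bdnf were Emb (0.093), Cldn12 (0.097) and Dnajb9 (0.099). Among the 3 closest to Ntrk2 were Erap1 (0.042) and Cmtm4 (0.043), and to Ntrk3 Man2a1 (0.033), Lgr4 (0.047) and Itga8 (0.048). Closest to Ngfr were Pcdh19 (0.069), Npy1r (0.079) and Pcdhb9 (0.089), and to Sort1 Tmem106b (0.027), Pcdhb10 (0.032) and Mmp17 (0.033). Pearson's r over the 9 group means was 0.95 to 0.99 for these pairs; the points share libraries and the choice was made for likeness, so r is a description.

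Among 8 other neurotrophin ligands and receptors, 5 were tested, and none was called for either stimulus in any fraction. Of all genes, 0.308% and 0.638% were called for bicuculline and BDNF under DRB. Under triptolide 0.0352%, 1.81% and 3.27% were called for bicuculline in whole cells, nuclei and cytosol. These shares stand beside the lists that follow as well. For bicuculline in nuclei 1 (Sorcs2) had an unadjusted limma p under 0.05, against 2467 of all 14205 genes. Sorcs2 was called there with the replicate block, where 7.72% of all genes were called higher. In the other stimulus comparisons 0 had such a p or such a call. In nuclei against cytosol without stimulation 1 of the 5 was higher and 2 were lower (39.0% and 28.0% of all genes). Sorcs1, a sortilin relative, was higher by 0.59 ± 0.08 (limma adjusted p = 5.31e-06) and Sorcs2 was lower, with -0.19 ± 0.08 (0.0488). With bicuculline 1 was higher and 1 lower (31.3% and 31.9% of all genes). Sorcs1 was called again (0.54 ± 0.08) and Sorcs2 was not.

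Of 15 genes for cleavage and release of proneurotrophins, 11 were tested and none was called for a stimulus. Under triptolide 1 had an unadjusted limma p under 0.05 in whole cells, 3 in nuclei and 0 in cytosol. This was so for 1566, 2467 and 2769 of all 14205 genes. Under DRB 0 had one, against 266 of all 13321 genes for bicuculline and 462 for BDNF. With the replicate block 1 was called higher in whole cells, 4 higher in nuclei and 3 lower in cytosol. The all-gene shares were 3.72%, 7.72% and 0.795%. In nuclei without stimulation 3 were higher and 7 lower than in cytosol (39.0% and 28.0% of all genes), with a list median of -0.35 against 0.06 over all genes; Serpini1, the gene of the protease inhibitor neuroserpin, had the largest difference, -1.08 ± 0.07 (limma adjusted p = 1.53e-09). With bicuculline 3 were higher and 4 lower (31.3% and 31.9% of all genes), with a median of -0.20 against -0.04.

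Of 44 adaptors and effectors of Trk receptors, all were tested. None was called for bicuculline or BDNF under DRB, nor for bicuculline in whole cells or nuclei under triptolide. An unadjusted limma p under 0.05 was found for 2 and 2 of the 44 under DRB, against 266 and 462 of all 13321 genes. Under triptolide it was found for 10, 5 and 23 in whole cells, nuclei and cytosol, against 1566, 2467 and 2769 of all 14205. With the replicate block 0 and 1 were called under DRB, 5 higher in whole cells, and 2 higher and 1 lower in nuclei. All-gene shares in the blocked fits were 1.46% higher for BDNF, 3.72% higher in whole cells, and 7.72% higher and 5.39% lower in nuclei. In cytosol, where 3.27% of all genes were called, 4 rose with bicuculline, among them Shc2, an adaptor, by 0.42 ± 0.07, Braf, a kinase of the MAP kinase cascade, by 0.39 ± 0.07, and Map2k5, the kinase above Erk5, by 0.28 ± 0.05 (limma adjusted p = 0.0133, 0.0141 and 0.0146). The list median was 0.21 against 0.08 over all genes. Median-ratio scaling brings the all-gene median to -0.01, and with it only 31 of all 14205 genes were called in cytosol. Of the 44, 0 were called with that scaling (limma adjusted p 0.0638 to 0.107 for the 3 named). With the block added to that scaling 6 rose (3.37% of all genes did). With the block alone 21 of the 44 rose, against 14.5% of all genes. The response of Shc2 and Map2k5 was lower in nuclei than in cytosol, by differences of -0.52 ± 0.10 and -0.47 ± 0.07 (limma adjusted p = 0.0312 and 0.0109). They were the only genes of the list called in that contrast, where 0.556% of all genes passed. Between fractions without stimulation 20 were higher and 12 lower in nuclei (39.0% and 28.0% of all genes), led by the adaptors Shc1 (1.32 ± 0.11) and Gab1 (1.29 ± 0.08); with median-ratio scaling the split was 15 and 16. With bicuculline 9 were higher and 17 lower (31.3% and 31.9% of all genes), with Shc1 at 1.10, Gab1 at 1.06 and Shc3 at 0.86.

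Of 16 partners and effectors of p75, 15 had an entry (Bex3, another symbol of Ngfrap1, did not) and 13 were tested. In nuclei Rtn4r, the Nogo receptor that forms a complex with p75, rose with bicuculline by 0.59 ± 0.08 (limma adjusted p = 0.00412). It was the only gene of the list called there, where 1.81% of all genes passed. Its level went from 7.22 ± 0.225 to 11.1 ± 1.13 FPKM (SD, n = 3 each). Without a call, its mean also went from 9.16 to 11.9 FPKM in whole cells and from 11.3 to 13.2 in cytosol. In cytosol, where 3.27% of all genes passed, Prdm4, a zinc finger protein that binds p75, rose by 0.35 ± 0.08 (limma adjusted p = 0.0239). It was not called with median-ratio scaling (limma adjusted p = 0.128), where 31 of all 14205 genes were. With the replicate block 2 were called higher in whole cells, 5 higher and 1 lower in nuclei and 2 higher in cytosol, against 3.72%, 7.72% and 5.39%, and 14.5% of all genes. In both treatments 3 genes of the list were higher and 10 lower in nuclei than in cytosol (medians -0.37 and -0.27), against 39.0% and 28.0% of all genes without stimulation and 31.3% and 31.9% with bicuculline.

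Of 19 regulators of Bdnf transcription, 17 were tested. Npas4 was the only one called under DRB, with either stimulus, where 0.308% (bicuculline) and 0.638% (BDNF) of all genes passed. Under triptolide Crebbp, the coactivator of CREB, was the only one called, in cytosol (0.33 ± 0.07, limma adjusted p = 0.0239), where 3.27% of all genes passed. With median-ratio scaling Crebbp was not called (limma adjusted p = 0.126), where 31 of all 14205 genes were. With the replicate block 3 of the list were called higher in whole cells, 1 in nuclei and 9 in cytosol, against 3.72%, 7.72% and 14.5% of all genes. Npas4 ranged from 1.07 to 1.60 FPKM in unstimulated and from 1.73 to 2.96 in bicuculline whole cells under triptolide, a difference of 0.62 ± 0.23 (limma adjusted p = 0.305; 8.57e-04 with the replicate block). In nuclei without stimulation 9 were higher and 3 lower than in cytosol (39.0% and 28.0% of all genes; median 0.51), with Atf1 at 1.17 ± 0.17, Crebbp at 1.14 ± 0.07 and Carf at 1.12 ± 0.09; with bicuculline 7 were higher and 5 lower (31.3% and 31.9% of all genes; median 0.23), with Crebbp at 0.96 and Carf at 0.78.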

How the data were processed

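Primary mouse cortical cells were profiled by poly(A) RNA sequencing (27 libraries, 9 groups of 3, stranded kit, per the labels' protocols). The authors deposited 1 table of FPKM per gene for all libraries. STAR 2.4.0, SAMtools, Picard, FastQC and build mm10 are named in the submitters' processing notes; no source used here gives the counting program, its strand setting or the depth. The 6 genes, the gene lists and the tests were chosen with earlier results of these data known.

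From the deposited FPKM, log2(FPKM + 0.5) was fitted with limma 3.58.1 (R 4.3.3; trend and robust moderation) in 3 fits: DRB (9 libraries, 13321 genes), triptolide (18 libraries, 14205 genes), and DRB with triptolide whole cells, unstimulated and bicuculline (12 libraries, 13814 genes). Genes had to reach 1 FPKM in 3 or more libraries of a fit. P-values were adjusted by Benjamini-Hochberg over all genes of a fit and called under 0.05. The fit without a block was tested on simulated data with independent noise per library. The blocked fit was not tested in this way. Alternatives were pseudocounts of 0.1 and 1, no filter, median-ratio scaling, a replicate block, leaving out each library and, chosen after seeing the data, leaving out replicate 2 of all DRB groups or each replicate number of all triptolide groups in the blocked fit.

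Same-numbered libraries pair: descriptions give each number a shared tag across groups, and deviations from group means correlated in every same-number pair (0.46 to 0.90 in 9 DRB pairs, 0.26 to 0.69 in 45 triptolide pairs; -0.62 to 0.15 and -0.45 to -0.07 between different numbers). Named genes were the 6 members, up to 6 called genes of the lists per comparison (those with the largest change), the 3 genes nearest in pattern to each member, and Npas4, Arc and Fos as activity controls; the other genes of the family, and Meg3, were named after their values were seen. Promoter windows came from RefSeq (GRCm38.p6) and transcripts from GENCODE M21. Some genes that the naming rule or the lists include are not reported here by name.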

Additional observations from a re-analysis of the deposited data

Results flagged for a closer look

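The bicuculline response differed between nuclei and cytosol under triptolide for Bdnf (0.45 in log2, nucleus minus cytosol) and Ngfr (0.58) by the test of the difference itself, in the fit with the replicate number as a block (limma adjusted p = 0.0421 and 0.0174). That fit called 2.84% of all genes in this direction. Sort1 did not pass in it (limma adjusted p = 0.0592) and passed when median-ratio scaling was added (0.0106). Without the block neither Bdnf nor Ngfr passed (0.424 and 0.315), and within the blocked fit neither passed once any replicate number was left out.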

How the results depend on the processing

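With the replicate block, the number of genes called was 76 for bicuculline, 199 for BDNF and 72 for BDNF against bicuculline under DRB; 601, 1862 and 2175 for bicuculline in triptolide whole cells, nuclei and cytosol; 1387 for the response in nuclei minus cytosol; and 38 for DRB minus triptolide. With the block and median-ratio scaling these were 66, 180, 71, 310, 2043, 1073, 1127 and 41. Members called with the block, and with the block and scaling, were 3 and 3 in nuclei and 2 and 3 for nuclei minus cytosol; the block changed no other call of a member. Without the filter 561 genes were called in nuclei, 106 in cytosol, 29 for nuclei minus cytosol, and 19387 and 16850 between fractions without and with stimulation. Median-ratio scaling gave 31 in cytosol and 153 for nuclei minus cytosol, a pseudocount of 1 gave 3 in whole cells, and one of 0.1 gave 11 for DRB minus triptolide. Leaving out 1 library, or 1 replicate number, gave 27 to 38 genes for bicuculline, 50 to 68 for BDNF and 9 to 20 for BDNF against bicuculline under DRB; 1 to 5, 21 to 520 and 12 to 334 in whole cells, nuclei and cytosol; 9 to 671 for nuclei minus cytosol; and 9 to 19 for DRB minus triptolide. Single libraries set these limits: without bicuculline nuclear replicate 2 the counts were 520 in nuclei and 671 for nuclei minus cytosol; the lowest, 21, 12 and 9, came without unstimulated nuclear replicate 1, unstimulated cytosol replicate 3 and bicuculline cytosol replicate 1. Members called then numbered 0 to 2 for bicuculline in nuclei and 3 to 5 and 2 to 3 between fractions. Causes were not tested beyond the smaller number of samples. No direction of a called member reversed in any alternative run. Depth is unknown, so the precision of the low members Ntf3 and Ngfr rests on 3 libraries per group alone.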
